A study of Homo sapiens with 12 samples.

Results

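The genes described are 6 transcriptional targets of Wnt signalling (LGR5, RNF43, AXIN2, NKD1, SP5 and PROX1) and DKK1, a secreted Wnt antagonist. They were found by symbol among the annotated transcript clusters of the array, where a transcript cluster is the set of probes read as 1 transcript locus. Each of the 7 symbols had 1 cluster, so taking, for each symbol, the brightest cluster by its 12-array mean left no choice. They are 7 of 14884 symbols measured and 7 of the 8930 genes tested. The list was drawn up with earlier results of these data known, so its choice cannot be called independent of the measured differences.

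RNA was profiled on Affymetrix GeneChip Human Gene 2.0 ST arrays in 3 established gastric cancer cell lines, SNU601, MKN1 and AGS. Each line was treated with JK139, with JK136, with Rhosin or with the solvent DMSO. Rhosin is a small molecule known to keep the GTPase RhoA from its activating exchange factors, and JK136 and JK139 are known here only by their code names. Each of the 12 combinations had 1 array, which gave 4 arrays per line and 3 per treatment. All cells were kept in RPMI-1640 medium with 10% fetal calf serum, and the labels state no dose and no time of exposure. A cell line holds cancer cells only, without the stroma of a tumour, and nothing in the labels says that a combination was cultured more than once.

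Wnt ligands bind Frizzled receptors and the LRP5 and LRP6 co-receptors, which halts the destruction of beta-catenin. Beta-catenin then enters the nucleus and activates genes with TCF factors, and many of those genes feed back on the pathway. In the stomach and intestine this circuit maintains the stem cells of the epithelium, and it is often active in cancers of the gut.

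Array medians lay between 4.14 and 4.20 on the log2 scale, and genes with a mean under 4.61, the 40th percentile of all gene means, were not tested. Over all clusters, Pearson's r was 0.978 to 0.988 between arrays of the same line and 0.927 to 0.960 between lines. Of the 7 epithelial markers listed, 6 had a cluster, and their mean log2 level was 9.18 to 9.30 in SNU601, 7.27 to 7.30 in MKN1 and 8.70 to 8.93 in AGS. For 5 of 6 gastric epithelial markers it was 6.51 to 7.06 in SNU601, 3.47 to 3.71 in MKN1 and 3.81 to 4.19 in AGS. CLDN18, a stomach-type tight junction gene, lay under the filter value on all 4 arrays of MKN1 and of AGS. For 3 of 5 mesenchymal markers the level was 3.50 to 3.74 in SNU601, 7.85 to 8.10 in MKN1 and 3.59 to 3.75 in AGS. Of the fibroblast list, 2 of 4 markers had a cluster, LUM with a mean of 8.76 in MKN1 and DCN with 1.96. The endothelial list (3 of 4 with a cluster) had mean levels of 3.51 to 3.65 in SNU601, 3.49 to 3.74 in MKN1 and 3.44 to 3.84 in AGS, and the leukocyte list (1 of 4, CD14) had 3.23 to 3.65, 4.39 to 4.97 and 3.05 to 3.54 in these lines.

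The 7 genes lie on 6 chromosomes in the human RefSeq annotation of GRCh38.p14. LGR5 (cluster 16754134) lies at chr12:71439129-71586310, RNF43 (16847095) at chr17:58352500-58417534 and AXIN2 (16847933) at chr17:65528563-65561648. NKD1 (16818808) lies at chr16:50548396-50649249, SP5 (16887463) at chr2:170715337-170718078, PROX1 (16677391) at chr1:213983151-214041510 and DKK1 (16705011) at chr10:52314281-52317657. These spans are whole genes with exons, introns and untranslated regions, and the position of the probes within them was not used here. RefSeq promoter windows, from 250 bases before to 50 after a transcription start, were at hand for SP5, DKK1 and RNF43. LGR5, AXIN2, NKD1 and PROX1 had no window in that table. The windows were searched on both strands for CTTTGAA, for CTTTGAT, for CTTTGTA and for CTTTGTT, the core letters that TCF factors are known to bind. The windows of SP5 and DKK1 are shown because both held matches, which are in capitals (TTCAAAG is CTTTGAA read on the other strand). The SP5 window is chr2:170715087-170715386 and the DKK1 window is chr10:52314031-52314330, both of GRCh38.p14 and of the plus strand, written 5′ to 3′.
SP5: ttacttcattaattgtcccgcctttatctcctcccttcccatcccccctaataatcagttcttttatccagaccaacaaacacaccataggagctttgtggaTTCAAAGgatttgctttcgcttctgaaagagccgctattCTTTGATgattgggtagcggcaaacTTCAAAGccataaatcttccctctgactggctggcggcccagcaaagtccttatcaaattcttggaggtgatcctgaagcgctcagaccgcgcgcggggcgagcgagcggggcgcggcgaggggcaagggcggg
DKK1: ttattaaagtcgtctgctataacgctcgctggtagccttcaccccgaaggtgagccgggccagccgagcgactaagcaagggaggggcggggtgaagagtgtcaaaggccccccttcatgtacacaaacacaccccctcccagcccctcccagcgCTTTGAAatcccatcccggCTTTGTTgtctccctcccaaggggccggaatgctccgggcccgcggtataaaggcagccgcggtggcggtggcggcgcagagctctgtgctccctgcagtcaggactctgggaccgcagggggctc
SP5 had 3 matches, whose leftmost bases lay 148, 109 and 84 bases before the start. DKK1 had 2, at 95 and 76 bases before it, and the 2 windows of RNF43 had 0. Of 35116 such windows in the RefSeq table, 13.8% held at least 1 match, 1.58% at least 2 and 0.179% at least 3. A match describes letters only, and binding was not measured.

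The lines differed widely in the 6 target genes. Their mean log2 signal was 6.96 ± 0.04 in SNU601, 4.87 ± 0.05 in MKN1 and 8.31 ± 0.23 in AGS (SD over 4 arrays). These means include signals under the filter value. In MKN1 these were 3 arrays of LGR5 and all arrays of RNF43 and PROX1, and in SNU601 all arrays of PROX1. LGR5, RNF43 and AXIN2 were high in SNU601 and AGS and low in MKN1, while SP5 and PROX1 stood clearly apart only in AGS. In these bulk RNA samples, more cells with a transcript and more of it per cell cannot be told apart. DKK1 followed another order, with MKN1 close to AGS and SNU601 lowest. In the values below, the 4 arrays of a line are given in the order JK139, JK136, Rhosin and DMSO, all as log2 signals. Signals of different genes come from different probes and are not compared with each other.

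LGR5 encodes the R-spondin receptor that marks stem cells of the gut. Its log2 signal was 8.99, 8.89, 8.62 and 8.93 in SNU601, 4.28, 4.07, 4.79 and 4.28 in MKN1, and 10.27, 10.22, 9.68 and 10.08 in AGS. The 3 lines did not overlap, and 3 of the 4 MKN1 arrays lay under the filter value. RNF43 encodes a ubiquitin ligase that removes Frizzled receptors from the cell surface and that R-spondins hold in check. Its signal was 8.89, 8.82, 8.73 and 8.87 in SNU601, 4.33, 4.18, 4.58 and 4.57 in MKN1, and 9.71, 9.74, 9.23 and 9.73 in AGS. All 4 MKN1 arrays lay under the filter value, so the MKN1 side of both genes gives only an upper bound.

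AXIN2 encodes a scaffold of the beta-catenin destruction complex and is a widely used readout of the pathway. Its log2 signal was 8.64, 8.57, 8.65 and 8.60 in SNU601, 5.52, 5.93, 5.52 and 5.79 in MKN1, and 9.49, 9.52, 9.13 and 9.60 in AGS. The lines were again fully separated, and the SNU601 arrays lay within a narrow band. NKD1 encodes an inhibitor that binds Dishevelled. Its signal was 6.37, 6.13, 5.99 and 6.40 in SNU601, 5.52, 5.29, 5.11 and 5.32 in MKN1, and 8.09, 7.88, 7.94 and 8.25 in AGS. SNU601 stood closer to MKN1 than to AGS for NKD1, unlike for AXIN2.

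SP5 encodes a zinc finger transcription factor that represses in the Wnt response. Its log2 signal was 5.42, 5.39, 5.23 and 5.15 in SNU601, 5.19, 5.07, 5.11 and 4.89 in MKN1, and 6.98, 6.72, 6.58 and 6.92 in AGS. SNU601 and MKN1 overlapped, because the lowest SNU601 array lay below the highest MKN1 array. PROX1 encodes a homeobox transcription factor that is a target of TCF in colorectal tumours. Its signal was 3.70, 3.79, 4.27 and 4.01 in SNU601, 4.32, 4.31, 4.39 and 4.48 in MKN1, and 6.11, 5.75, 5.34 and 6.46 in AGS. Only the AGS arrays lay above the filter value, and the mean over 12 arrays of 4.75 passed through AGS alone.

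DKK1 binds LRP5 and LRP6 from outside the cell and blocks the ligand signal, and it is itself a target of TCF in other tumour cells. Its log2 signal was 6.45, 7.15, 6.48 and 6.51 in SNU601, 7.36, 7.95, 8.02 and 7.83 in MKN1, and 8.04, 9.24, 7.18 and 8.18 in AGS. The AGS arrays enclosed all 4 MKN1 arrays, and the highest SNU601 array, with JK136, lay 0.03 below the lowest AGS array, with Rhosin.

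**Figure D1:**
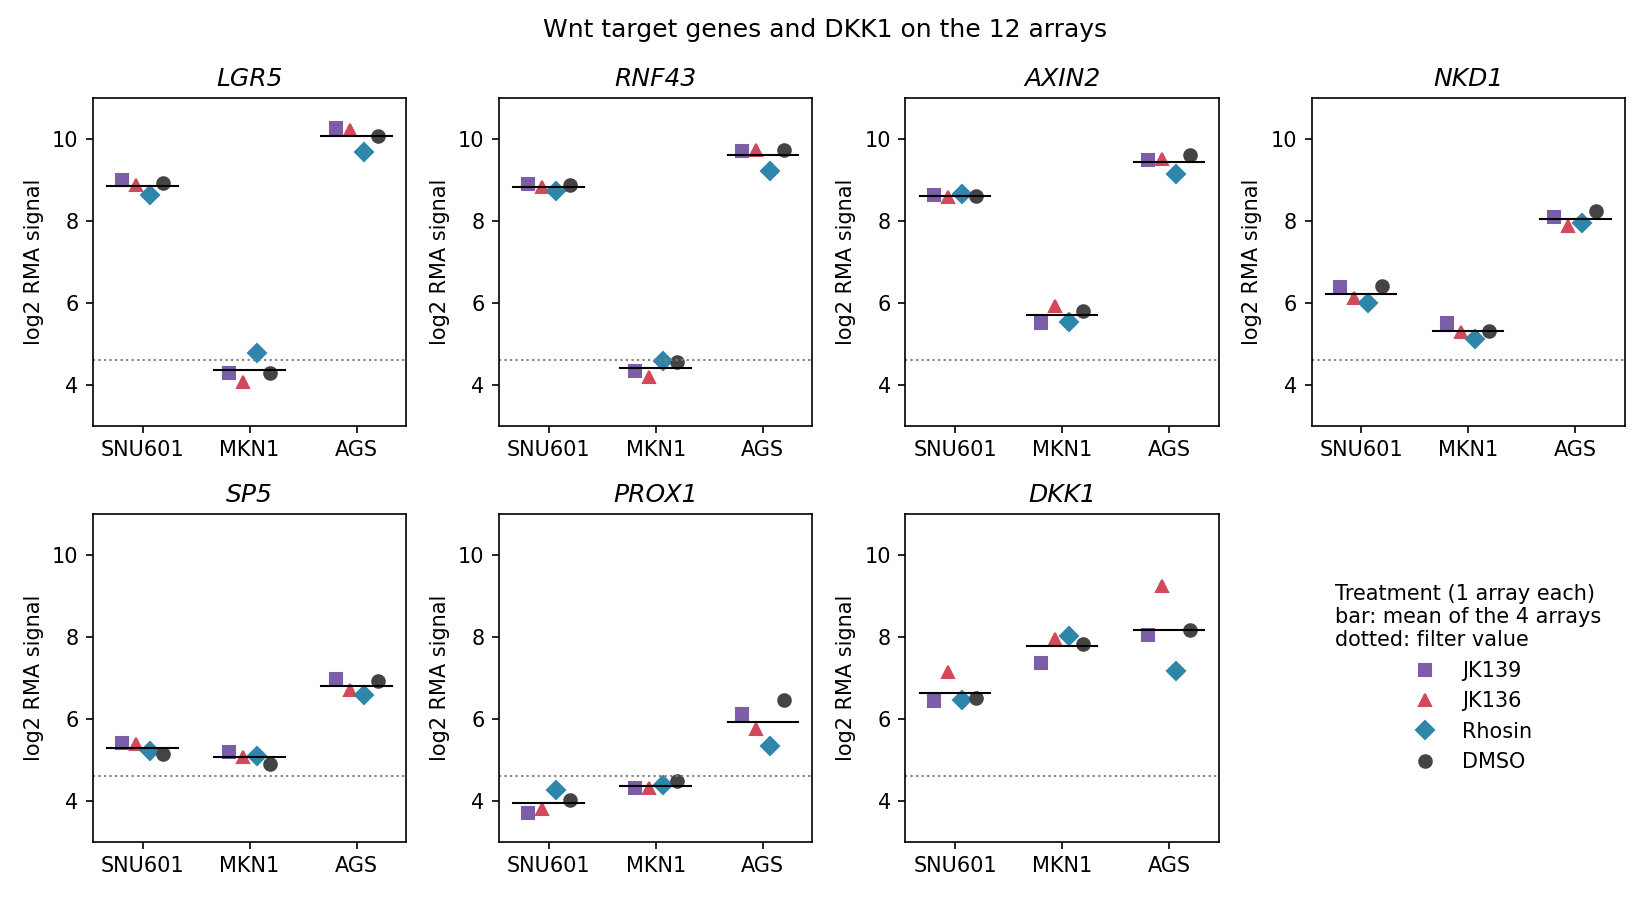
Log2 signal (y axis) of each of the 7 genes in SNU601, MKN1 and AGS (x axis), with 1 symbol per array by treatment, a bar at the mean of the 4 arrays of a line and a dotted line at the filter value of 4.61. LGR5, RNF43 and AXIN2 were low only in MKN1, SP5 and PROX1 were high only in AGS, and DKK1 spread over 7.18 to 9.24 within AGS.

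Differences between lines were tested with limma on all 12 arrays with line and treatment as terms, and an adjusted p under 0.05 over 8930 genes was called. The spread behind these tests is that between treatments of 1 culture each, not between repeat cultures of a line. PROX1 passed the filter through AGS alone and so had to differ from AGS, and it is left out of the counts below. LGR5 and RNF43, with 3 and 4 of their MKN1 arrays under the filter value, passed it through SNU601 and AGS. They therefore had to be lower in MKN1 than in another line. They stay in the counts below with that limit, which applies to both comparisons with MKN1. In MKN1 against AGS, 5 of the other 6 genes were called lower and 0 higher, where 31% of all tested genes were called lower and 35.3% higher. For LGR5 the fitted difference in log2 signal was −5.71 ± 0.17 (SE), with an adjusted p of 5.73e-11, and for RNF43 it was −5.19 ± 0.12. With MKN1 arrays under the filter value set to that value, LGR5 was at least 42.5-fold and RNF43 at least 31.9-fold lower in MKN1. AXIN2 was 13.4-fold lower, NKD1 6.65-fold and SP5 3.33-fold, and the adjusted p of the 5 genes was at most 1.42e-08. PROX1, with the same floor, was at least 2.48-fold lower. DKK1 differed by −0.37 ± 0.24 (95% confidence interval −0.90 to 0.16), with an adjusted p of 0.193. Without the Rhosin array of AGS its difference was −0.71 and was called (adjusted p of 0.0026), and without the Rhosin array of MKN1 it was −0.64 (adjusted p of 0.0210).

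In SNU601 against AGS, 6 of the 6 genes other than PROX1 were called lower, where 22.8% of tested genes were called lower and 29.9% higher. NKD1 differed by −1.82 ± 0.08, DKK1 by −1.51 ± 0.24 and SP5 by −1.50 ± 0.09. PROX1, under the filter value on all SNU601 arrays, was at least 2.48-fold lower with those arrays set to that value. LGR5 differed by −1.20 ± 0.17, AXIN2 by −0.82 ± 0.10 and RNF43 by −0.78 ± 0.12. The adjusted p ranged from 8.06e-09 for NKD1 to 2.30e-04 for DKK1. LGR5, RNF43 and AXIN2, with the 3 largest gaps of the 7 genes between MKN1 and AGS, thus had the 3 smallest between SNU601 and AGS.

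In SNU601 against MKN1, 5 of the 6 genes other than PROX1 were called higher and 1 lower, where 32.3% of tested genes were called higher and 31.1% lower. The fitted difference in log2 signal was 4.50 ± 0.17 for LGR5 and 4.41 ± 0.12 for RNF43. With the MKN1 arrays floored as before, LGR5 was at least 18.4-fold and RNF43 at least 18.6-fold higher in SNU601. AXIN2 was higher by 2.92 ± 0.10 or 7.59-fold, and NKD1 by 0.91 ± 0.08 or 1.88-fold. The SP5 difference of 0.23 ± 0.09 was small, with overlapping arrays and an adjusted p of 0.0487. That call was lost in 16 of 27 other settings, among them the fit without the MKN1 DMSO array (0.18, adjusted p of 0.162). DKK1 was lower in SNU601 by 1.14 ± 0.24 (adjusted p of 0.00128). PROX1 differed by −0.43 ± 0.18 and was not called (adjusted p of 0.0544), with all arrays of both lines under the filter value. Without the Rhosin array of SNU601 it was −0.63 and was called (adjusted p of 0.00548).

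Mesenchymal marker levels, given above, set MKN1 apart from both other lines and were alike in SNU601 and AGS, and the part of markers in the line differences was not tested. Of the 6 epithelial markers, 3 were called higher and 3 lower in MKN1 against AGS, beside 35.3% and 31% of all tested genes. In SNU601 against AGS, 4 were called higher and 0 lower, beside 29.9% and 22.8% of all tested genes. In SNU601 against MKN1, 3 were called higher and 2 lower, beside 32.3% and 31.1%. EPCAM, an epithelial adhesion gene, averaged 10.19 in SNU601, 6.49 in MKN1 and 10.04 in AGS. ESRP1, an epithelial splicing factor, averaged 8.86 in SNU601, 4.11 in MKN1 and 8.95 in AGS. All 4 MKN1 arrays of ESRP1 lay under the filter value, so it had to be lower in MKN1 than in another line. Its place in both counts with MKN1 above carries that limit. CLDN7, a tight junction gene, averaged 10.03 in SNU601, 6.06 in MKN1 and 9.63 in AGS. The epithelial keratins did not follow these 3 genes. KRT8 averaged 6.44 in SNU601, 6.55 in MKN1 and 6.16 in AGS, KRT18 10.50, 10.75 and 9.63, and KRT19 9.33, 9.72 and 8.27 in these lines. VIM, the mesenchymal filament vimentin, averaged 4.16 in SNU601, 8.26 in MKN1 and 4.38 in AGS.

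**Figure D2:**
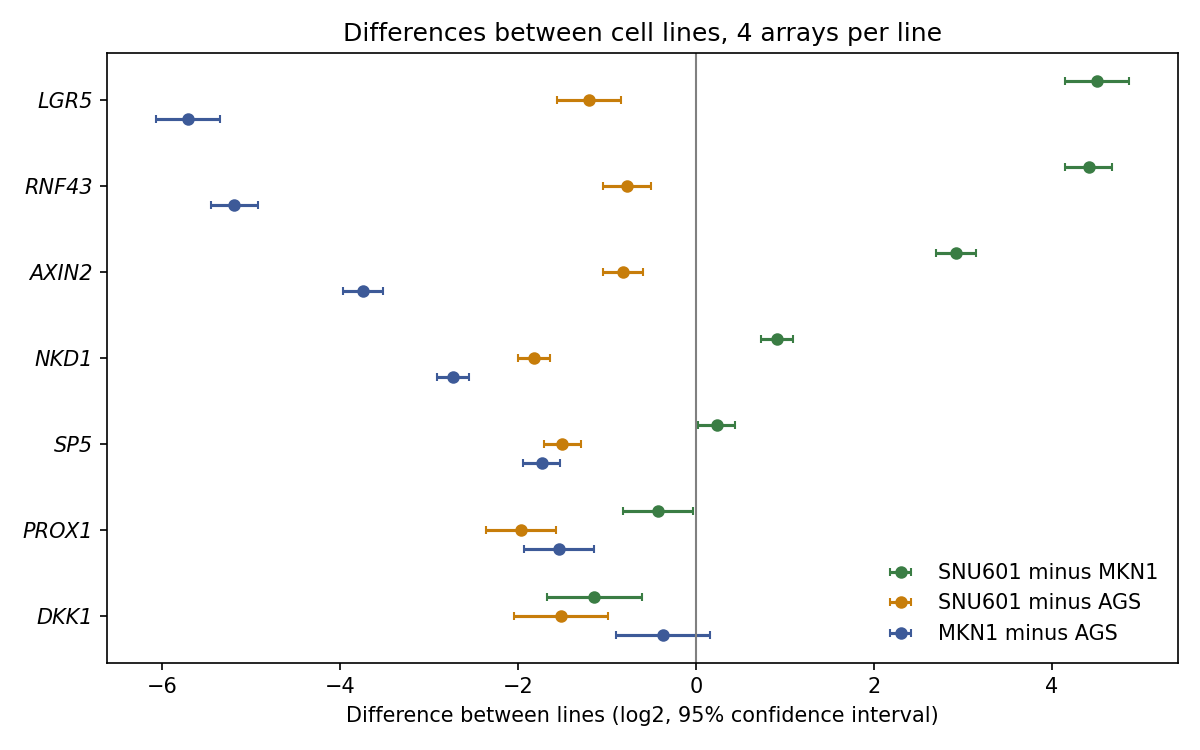
Differences between lines in log2 signal (x axis) for the 7 genes (y axis), with points at the fitted difference over 4 arrays per line and bars for the 95% confidence interval. LGR5, RNF43 and AXIN2 lay at −5.71, −5.19 and −3.75 in MKN1 against AGS, where the MKN1 signals of LGR5 and RNF43 lay mostly under the filter value, and the DKK1 interval in that comparison included 0.

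The order AGS above SNU601 above MKN1 held in all 4 treatments for LGR5, RNF43, AXIN2, NKD1 and SP5, and 610 of the 8930 tested genes (6.83%) had that order in all 4. Through the filter, LGR5 and RNF43 had to be lower in MKN1 than in another line. The low place of MKN1 in their order is therefore no separate result. DKK1 had the order AGS above MKN1 above SNU601 in 3 of 4 treatments, and PROX1 was highest in AGS in all 4, with both other lines under the filter value. Line held 97.2% to 99.5% of the sum of squares of LGR5, RNF43, AXIN2, NKD1 and SP5 and 90.5% of that of PROX1. PROX1 passed the filter through AGS alone, and LGR5 and RNF43 through SNU601 and AGS. A large line share of these genes thus follows in part from the filter. For DKK1 the shares were 64.5% for line, 19.2% for treatment and 16.3% for the rest, beside medians over all tested genes of 82.0%, 5.30% and 10.9%. DKK1 was therefore the gene of the 7 with the largest share outside the line term.

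The genes most like AXIN2 over the 12 arrays were RNF43 (Pearson's r of 0.993), LGR5 (0.992), NBEAL2 (0.992), DUSP16 (0.991) and FRMD5 (0.991). The arrays of a line share its cells, so these values describe mostly the order of 3 lines. After each line's mean was taken off, the r with AXIN2 over 12 arrays was 0.34 for RNF43 and 0.00 for LGR5. Both values include MKN1, where 4 arrays of RNF43 and 3 of LGR5 lay under the filter value. They therefore do not show whether these genes vary together within the lines that express them. For DKK1 with line means taken off, the most alike genes were IFIT5 (0.951), DDA1 (0.929), VPS18 (0.927), RPS27L (0.924) and TMCC1-DT (0.923). IFIT5, an interferon-induced gene, differed from DMSO by 0.25 in SNU601, −0.17 in MKN1 and 0.44 in AGS with JK136. With Rhosin it differed by −0.05 in SNU601, −0.13 in MKN1 and −0.64 in AGS. These likenesses are descriptions over arrays that share lines and treatments.

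The compounds were compared for DKK1 in all 6 pairs of treatments, with the 3 lines as replicates. Doses and times are not stated, so a difference between compounds is one between these treatments as run. The 3 comparisons with DMSO share the same 3 DMSO arrays. Against DMSO, the DKK1 signal with JK136 was higher by most in AGS, by less in SNU601 and by least in MKN1, and the difference did not pass the test.

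With JK136, DKK1 read 7.15 in SNU601, 7.95 in MKN1 and 9.24 in AGS, against 6.51, 7.83 and 8.18 with DMSO in these lines. The differences were 0.64, 0.12 and 1.06, all positive. The fitted difference was 0.61 ± 0.28 (SE, 3 lines), or 1.52-fold, with a 95% confidence interval from −0.003 to 1.22, an unadjusted p of 0.0510 and an adjusted p of 0.902. In AGS 17 of 8930 genes had a difference at least as high, in SNU601 45 and in MKN1 2370. Without the JK136 array of AGS the fitted difference was 0.28, and without that of MKN1 it was 0.89.

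With Rhosin, DKK1 read 6.48 in SNU601, 8.02 in MKN1 and 7.18 in AGS. The differences from DMSO were −0.03, 0.19 and −1.0, so only AGS moved by a visible amount, where 19 of 8930 genes had a difference at least as low. The fitted difference was −0.28 ± 0.28 (interval −0.89 to 0.33, adjusted p of 0.891), and it turned to 0.17 without the Rhosin array of AGS. With JK139, DKK1 read 6.45 in SNU601, 7.36 in MKN1 and 8.04 in AGS. The differences from DMSO were −0.06, −0.47 and −0.14, and the fitted difference was −0.22 ± 0.28 (interval −0.83 to 0.39, unadjusted p of 0.444).

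Between compounds, JK139 against JK136 gave DKK1 differences of −0.70 in SNU601, −0.59 in MKN1 and −1.20 in AGS. The 3 lines had the same sign, and the fitted difference was −0.83 ± 0.28 (interval −1.44 to −0.22, unadjusted p of 0.0121, adjusted p of 0.883). It was −0.50 without the JK136 array of AGS. JK136 against Rhosin gave 0.68 in SNU601, −0.07 in MKN1 and 2.06 in AGS, with a fitted difference of 0.89 ± 0.28 (interval 0.28 to 1.50, unadjusted p of 0.00818, adjusted p of 0.421). It was 0.44 without the Rhosin array of AGS, 0.56 without its JK136 array and 0.30 with the whole AGS line left out. JK139 against Rhosin gave −0.02 in SNU601, −0.66 in MKN1 and 0.86 in AGS, with a fitted difference of 0.06 ± 0.28 (interval −0.55 to 0.67, adjusted p of 0.966). These intervals leave room for differences of either sign in the last pair.

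No gene of the 8930 was called in any of the 6 comparisons of treatments (0 genes, 0% in each), so the 7 genes had 0 calls as well. By limma's unadjusted p under 0.05, 218 genes passed for JK139 against DMSO, 469 for JK136 against DMSO and 560 for Rhosin against DMSO. The counts were 494 for JK139 against JK136, 663 for JK139 against Rhosin and 812 for JK136 against Rhosin. The median 95% confidence interval of a compound difference reached 0.24 to either side, which bounds what 3 lines with 1 array each can show. A test of whether the response to any compound differed between lines called 0 of 8930 genes (0%), with 244 at an unadjusted p under 0.05. For DKK1 its F was 0.05 with an unadjusted p of 0.951. That test takes the mean of the 3 compounds in a line, so the opposite values of JK136 and Rhosin in AGS cancel in it by construction.

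**Figure D3:**
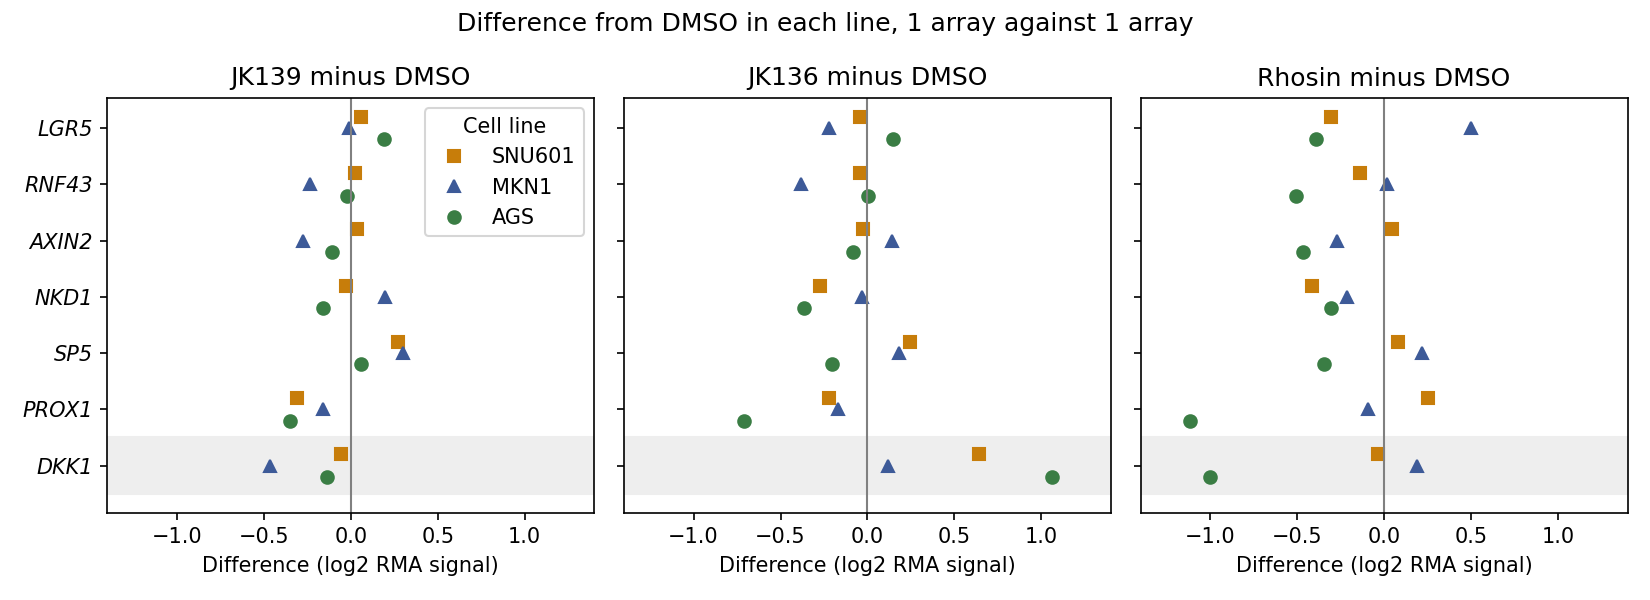
Difference of each compound from DMSO in log2 signal (x axis) for the 7 genes (y axis), 1 point per line, each point 1 array against 1 array. DKK1, on the shaded row, lay at 1.06 with JK136 and at −1.0 with Rhosin in AGS, and PROX1 lay at −1.12 with Rhosin in AGS.

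None of the 6 target genes was called with a compound. With Rhosin against DMSO, 6 of 6 fitted differences were negative, with a median of −0.22 beside −0.02 over all tested genes. Without the Rhosin array of AGS, 3 of the 6 were positive, LGR5 with 0.15, SP5 with 0.077 and PROX1 with 0.0085. NKD1, with 5.99 in SNU601, 5.11 in MKN1 and 7.94 in AGS with Rhosin, had differences of −0.41, −0.21 and −0.31. Its fitted difference of −0.31 ± 0.10 had an unadjusted p of 0.00701 and an adjusted p of 0.643. With JK136 the median of the 6 genes was −0.09, with 2 positive and 4 negative, and with JK139 it was −0.04, with 3 of each sign. These medians and sign counts include signals under the filter value. In MKN1 these were 3 arrays of LGR5 and all arrays of RNF43 and PROX1, and in SNU601 all arrays of PROX1.

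In AGS the Rhosin array lay below the DMSO array for 6 of 6 target genes, from −1.12 for PROX1 to −0.31 for NKD1, with a median of −0.43. Over all tested genes the median of this pair was −0.03, and 55.1% of genes lay below DMSO. In SNU601 and in MKN1, 3 target genes lay below and 3 above. LGR5 in MKN1 differed by 0.50, at signals near the filter value. The AGS Rhosin array was the lowest of the 4 AGS arrays for 5 of 6 target genes and for DKK1, and for 31.9% of all tested genes. Its r with the other AGS arrays was 0.978 to 0.982. This is a pattern of 1 array, and whether it would recur in a second culture was not tested.

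Other genes of the pathway were taken from 7 lists by role, which held 116 genes beside the 7 above, of which 75 had an annotated cluster and 50 were tested. The genes of beta-catenin itself (CTNNB1), of TCF7, TCF7L1 and TCF7L2 and of most Wnt ligands were not analysed here. LEF1, a TCF family factor, lay under the filter value on all 12 arrays. WLS, the carrier that brings Wnt ligands to the cell surface, was the tested gene of the ligand list. It averaged 6.84 in SNU601, 6.30 in MKN1 and 7.22 in AGS, and it was lower in MKN1 than in AGS by 0.92 ± 0.11.

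Of 13 tested Wnt receptors, 4 were called higher and 7 lower in MKN1 against AGS, with a median difference of −0.36 beside 0.02 over all tested genes. These are 30.8% and 53.8% of the list, beside 35.3% and 31% of all tested genes. The co-receptors of the beta-catenin branch were among the lower ones, LRP5 with −1.59 ± 0.11 and LRP6 with −1.31 ± 0.08, as were FZD5 with −1.69 ± 0.14 and the pseudokinase PTK7 with −2.76 ± 0.13. In SNU601 against AGS, 3 receptors (23.1%) were called higher and 6 (46.2%) lower, beside 29.9% and 22.8% of all tested genes, with PTK7 (−1.46), FZD7 (−1.19), ROR1 (−1.15) and FZD6 (−0.97). In SNU601 against MKN1, 7 (53.8%) were called higher and 4 (30.8%) lower, beside 32.3% and 31.1%, with LRP6 at 2.11, FZD5 at 1.86, LRP5 at 1.77 and FZD2 at −1.33.

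Of the R-spondin axis, 4 of 7 genes were tested beside LGR5 and RNF43, of which 1 was called higher and 2 lower in MKN1 against AGS, 0 in SNU601 against AGS, and 2 higher and 2 lower in SNU601 against MKN1. Of all tested genes, 35.3% were called higher and 31% lower in MKN1 against AGS. The shares were 29.9% and 22.8% in SNU601 against AGS, and 32.3% and 31.1% in SNU601 against MKN1. With 4 genes, the counts are too few to set against these shares. LGR4, a relative of LGR5, averaged 8.36 in SNU601, 6.15 in MKN1 and 8.25 in AGS. ZNRF3, the ubiquitin ligase related to RNF43, averaged 7.65 in SNU601, 5.67 in MKN1 and 7.50 in AGS. Both were called lower in MKN1 than in AGS (−2.10 ± 0.16 and −1.83 ± 0.10) and higher in SNU601 than in MKN1 (2.22 and 1.97), and neither was called in SNU601 against AGS. RSPO4, an R-spondin ligand, was called higher in MKN1 than in AGS by 0.81. LGR4 and ZNRF3 thus had the same low line, MKN1, as LGR5 and RNF43.

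Of 17 other TCF target genes tested, 5 (29.4%) were called higher and 7 (41.2%) lower in MKN1 against AGS, beside 35.3% and 31% of all tested genes, with a median of −0.07. MYC, the growth regulator, averaged 8.07 in SNU601, 5.09 in MKN1 and 7.59 in AGS. SOX9, an epithelial progenitor factor, averaged 9.04 in SNU601, 7.51 in MKN1 and 10.05 in AGS, and JAG1, a Notch ligand, 9.35, 6.76 and 9.49 in these lines. CD44, an adhesion receptor, ran the other way, with 8.05 in SNU601, 10.17 in MKN1 and 6.45 in AGS. In SNU601 against AGS, 7 of the 17 (41.2%) were called higher and 6 (35.3%) lower, beside 29.9% and 22.8% of all tested genes, with EPHB3 at 1.79, CD44 at 1.60, FGF18 at 1.08 and BAMBI at −1.84. In SNU601 against MKN1, 9 (52.9%) were called higher and 5 (29.4%) lower, beside 32.3% and 31.1%, with a median of 0.44, and MYC was higher by 2.98 and JAG1 by 2.59.

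Of 8 tested genes of the destruction complex and relay, 4 were called higher and 3 lower in MKN1 against AGS, 3 higher and 0 lower in SNU601 against AGS, and 1 higher and 2 lower in SNU601 against MKN1. The shares in MKN1 against AGS were 50% and 37.5%, in SNU601 against AGS 37.5% and 0%, and in SNU601 against MKN1 12.5% and 25%, to be read beside those of all tested genes above. FBXW11, a ubiquitin ligase subunit that recognises beta-catenin, was higher in MKN1 than in AGS by 0.88, AMER1 by 0.47 and AXIN1 by 0.41. APC was higher in SNU601 than in AGS by 0.42. Of 4 nuclear TCF partners, BCL9 was called higher in MKN1 than in AGS by 0.69, and CTBP1 was called lower in SNU601 than in MKN1 by 0.57 and than in AGS by 0.49. BCL9 was called lower in SNU601 than in MKN1 by 0.49. Of these 4 partners, 25% were called higher in MKN1 against AGS, beside 35.3% of all tested genes. In SNU601, 25% were called lower against AGS and 50% lower against MKN1, beside 22.8% and 31.1% of all tested genes. Of 3 tested secreted antagonists, 2 were called lower in MKN1 and 1 in SNU601 against AGS, and 1 was called higher in SNU601 against MKN1. DKKL1, called in both comparisons with MKN1, had 3 of its 4 MKN1 arrays under the filter value, so the limit given for LGR5 applies to it. Of all tested genes, 31% were called lower in MKN1 against AGS, 22.8% lower in SNU601 against AGS and 32.3% higher in SNU601 against MKN1. NOTUM, which inactivates Wnt ligands, averaged 4.85 in SNU601, 4.75 in MKN1 and 5.36 in AGS, and was called lower than AGS in both other lines.

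**Figure D4:**
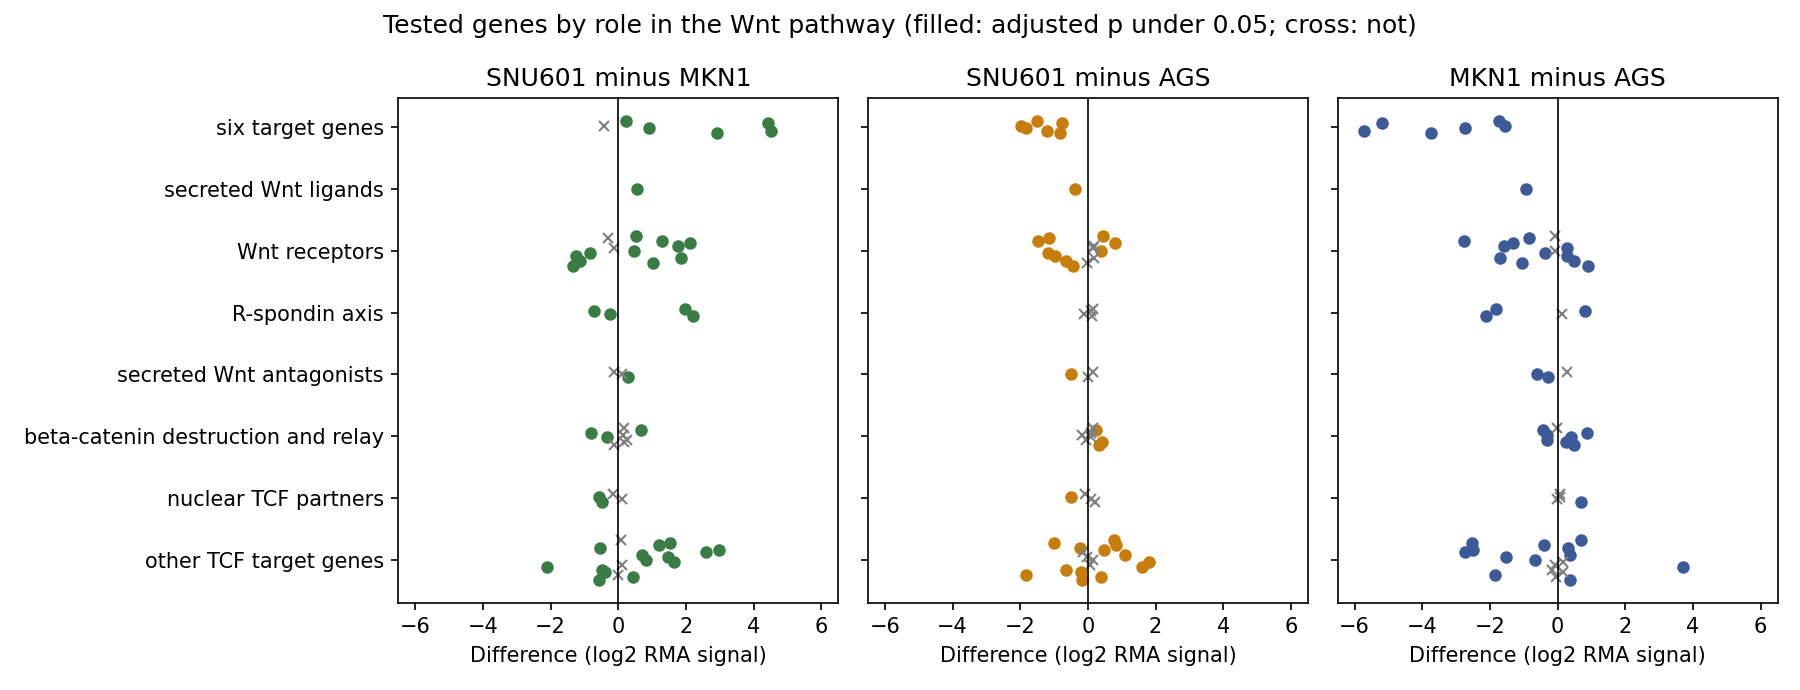
Differences between lines in log2 signal (x axis) for the tested genes of each list by role in the Wnt pathway (y axis), filled where called and crossed where not. The 6 target genes lay from −5.71 (LGR5) to −1.54 (PROX1) in MKN1 against AGS. Most MKN1 arrays of LGR5 and all of PROX1 lay under the filter value. In that comparison the other TCF target genes reached 3.72 (CD44) at the high end and −2.73 (JAG1) at the low end.

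In the comparisons of compounds with DMSO, 0 genes of these lists were called. With Rhosin, ROR1, a receptor tyrosine kinase-like Wnt receptor, read 6.43 in SNU601, 7.38 in MKN1 and 7.24 in AGS, against 7.28, 7.28 and 8.36 with DMSO. Its fitted difference was −0.63 ± 0.24 (adjusted p of 0.708), and it was −0.33 without the Rhosin array of AGS and −0.99 without that of MKN1. ADRA2C read 5.51 in SNU601, 6.07 in MKN1 and 5.64 in AGS with Rhosin, against 5.07, 5.57 and 5.26 with DMSO. Its fitted difference of 0.44 ± 0.08 was alike in the 3 lines and had an unadjusted p of 1.28e-04 and an adjusted p of 0.190. With JK136, JAG1 differed by 0.33 ± 0.13 and ASCL2, a stem cell transcription factor, by −0.33 ± 0.13 (adjusted p of 0.902 each). RSPO1 differed by 0.35 ± 0.11, RSPO4 by 0.28 ± 0.10 and BAMBI by −0.28 ± 0.12 with Rhosin, and EPHB3 by 0.28 ± 0.14 with JK139. With 1 array or line left out, these ranged from 0.19 to 0.45 for JAG1, from −0.53 to −0.20 for ASCL2, from 0.17 to 0.40 for RSPO4, from −0.40 to −0.12 for BAMBI and from 0.18 to 0.35 for EPHB3.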

How the data were processed

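The deposited values are log2 signals per transcript cluster. Per the submitters' processing notes, the authors used RMA, which corrects background, quantile normalizes the arrays and summarises probes, with Affymetrix Expression Console, without versions. Quantile normalization brings all arrays to 1 distribution, so a shift of most genes would not show, and signals near background understate differences. Symbols were available for 16098 of 53617 clusters (30.0%), and the annotation release was not given. Each symbol was taken as its cluster with the highest mean, and genes under the 40th percentile of means (4.61) were left out. Additive models of line and treatment were fitted with limma 3.58.1 in R 4.3.3, with 6 residual degrees of freedom and Benjamini-Hochberg adjustment over 8930 genes. Line differences rest on 4 matched arrays and compound differences on 3 lines. The fit was tested on simulated data. No depth applies to arrays, and their number limits the precision. Alternatives covered normalization, filter, cluster choice, variance prior, array weights, matching terms and left-out arrays, lines and treatments. The members, the pathway lists and the markers were chosen with earlier results of these data known. From each list the text names up to 4 called genes of largest difference per line comparison, and per compound comparison those of the 2 largest that reached 0.25. Lower bounds on folds set arrays under the filter value to that value, a choice made after the values were seen. Levels of marker genes and of DKK4, DKK3 and DKK2 were chosen for naming after their values were seen.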

Additional observations from a re-analysis of the deposited data

Results flagged for a closer look

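Of 21 groups of 4 arrays (7 genes in 3 lines), 2 held an array that stood apart by Dixon's test, where chance marks about 1 group in 20. DKK1 in SNU601 read 7.15 with JK136, and the other 3 arrays lay between 6.45 and 6.51, a gap of 0.92 of the range. RNF43 in AGS read 9.23 with Rhosin, and the other 3 arrays lay between 9.71 and 9.74, a gap of 0.95 of the range. The 4 arrays of a line had different treatments, so treatment and array cannot be told apart in either case.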

How the results depend on the processing

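With only 1 array per combination, no value has a repeat culture behind it. The calls of LGR5, RNF43, AXIN2 and NKD1 between lines, those of SP5 and PROX1 against AGS and those of DKK1 in SNU601 against AGS and against MKN1, held under every alternative that tested them (the 60th percentile filter leaves out PROX1). Through the filter, PROX1 had to differ from AGS, and LGR5 and RNF43 had to be lower in MKN1 than in another line. For these genes the persistence of those calls is no added support. The count of the 7 genes called, PROX1 included, was 5 to 7 in MKN1 against AGS, 6 to 7 in SNU601 against AGS and 5 to 7 in SNU601 against MKN1. In the main fit, 35.3% of all tested genes were called higher and 31% lower in MKN1 against AGS. The shares were 29.9% and 22.8% in SNU601 against AGS, and 32.3% and 31.1% in SNU601 against MKN1. Leaving out the matching term (no replicate block) ended the calls of SP5 (0.23, adjusted p of 0.0596) and RSPO1 (−0.26, adjusted p of 0.0817) in SNU601 against MKN1 and no other of the named genes' calls. The RSPO1 call was lost in 10 of 26 other settings in all, among them the fit without a filter (adjusted p of 0.0582). GSK3A and WLS in SNU601 against AGS and DKKL1 in SNU601 against MKN1 were also lost in some settings, WLS without the JK139 array of AGS (−0.28, adjusted p of 0.0583). Testing every cluster on its own, which tests 32170 features, called 15169, 10324 and 14398 in MKN1 against AGS, SNU601 against AGS and SNU601 against MKN1, beside 5919, 4710 and 5660 genes. In JK136 against DMSO 1 gene was called without the filter, and in JK136 against Rhosin 3 without the JK136 array of MKN1.

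Signs of small compound differences turned, and the cause was not tested. With array weights DKK1 was −0.084 in JK139 against Rhosin, NKD1 was −0.0167 in JK139 against DMSO and SP5 was 0.00748 in Rhosin against DMSO. With quantile normalization again SP5 was 0.019 in Rhosin against DMSO. With 1 array or line left out, DKK1 ranged from −0.39 to 0.42 in JK139 against Rhosin and from −0.64 to 0.17 in Rhosin against DMSO. In Rhosin against DMSO the ranges were −0.39 to 0.15 for LGR5, −0.61 to 0.0782 for PROX1 and −0.13 to 0.15 for SP5. In JK136 against DMSO they were −0.17 to 0.13 for LGR5, −0.0863 to 0.10 for AXIN2 and −0.00908 to 0.21 for SP5. In JK139 against DMSO they were −1.6e-05 to 0.19 for LGR5, −0.13 to 0.00135 for RNF43 and −0.0924 to 0.0856 for NKD1. The test of different responses between lines could not be fitted without a DMSO array of a line.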

Other observations

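Of 3 other Dickkopf genes with a cluster, all with a mean under the filter value, DKK4 and DKK3 differed between lines in the fit without a filter and DKK2 was not called. DKK4, a secreted Wnt antagonist that is a target of TCF in other tumour cells, read 5.34 to 6.13 in SNU601, 2.24 to 3.20 in MKN1 and 3.29 to 3.57 in AGS. It lay under the filter value on all arrays of MKN1 and AGS, and with those set to that value it was at least 2.15-fold higher in SNU601 than in either line. In the fit without a filter the adjusted p was 7.65e-06 for SNU601 against AGS and 4.89e-07 for SNU601 against MKN1. DKK3, a divergent member of the family, read 3.50 to 3.95 in SNU601, 4.69 to 5.55 in MKN1 and 3.51 to 3.98 in AGS. DKK2, another secreted member, read 2.78 to 3.22 in SNU601, 2.93 to 3.36 in MKN1 and 3.19 to 3.47 in AGS, all under the filter value, with adjusted p of 0.129 for MKN1 against AGS, 0.124 for SNU601 against AGS and 0.888 for SNU601 against MKN1.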
